A study of Mus musculus with 6 samples.

Results

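The miRNA miR-218 was measured by 1 probe, mmu-miR-218, of 599 mouse miRNA probes on a spotted microarray, in cultured smooth muscle cells of mouse kidney arterioles with and without stimulation of cyclic AMP. The probe was chosen by its measured values: of 167 probes tested for a difference between forskolin and control cultures, it had the highest fitted fold change. Its difference between the groups is therefore given as a description, with no test. The cells were a primary line (aSMCs) at passage 7, of mixed 129Sv/C57Bl6 strain, descended from cells of the renin lineage, and the series title gives the induction of renin as the aim of the treatment. For 24 h, the 3 forskolin cultures were kept in 10 µM forskolin, which activates adenylyl cyclase, and 100 µM IBMX, which blocks the breakdown of cyclic AMP, and 10 µM forskolin was given once more for the last 30 min. The 3 control cultures were untreated, with no vehicle named in the labels. The contributions of forskolin and IBMX cannot be told apart in this design. In RNA of whole cultures, fewer cells that make a miRNA and less of it per cell cannot be told apart either.

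MicroRNAs are short RNAs cut from a hairpin precursor, and they lower the output of messenger RNAs that pair with their seed, the bases near their 5′ end. miR-218 is made from hairpins at a pair of loci, each in an intron of a gene for a secreted SLIT guidance protein, Slit2 or Slit3. SLIT proteins signal through ROBO receptors in axon guidance and in vessel growth, and Robo1 is a known target of miR-218. The miRNA is best known for its high level in motor neurons. miR-218 is thus an intronic miRNA whose primary transcript can be shared with its host gene.

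The probe's target sequence is shown first because both loci yield it, so that the array reads their sum. The capitals mark the seed, bases 2 to 8 counted from the 5′ end.
mmu-miR-218: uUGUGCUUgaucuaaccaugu

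The hairpins are shown because they share the strand measured and differ around it. RefSeq (GRCm38.p6) places Mir218-1 at chr5:48223942-48224051 on the plus strand. It lies inside Slit2, which is on the same strand, 242.7 kb from the start of that gene. Mir218-2 lies at chr11:35616816-35616925 on the plus strand, inside Slit3, also on the same strand, 495.4 kb from the start of its host. Capitals mark the mature strand, which begins at base 25 of each hairpin.
Mir218-1: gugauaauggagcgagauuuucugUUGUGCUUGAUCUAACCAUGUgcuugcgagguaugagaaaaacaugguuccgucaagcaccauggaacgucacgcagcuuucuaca
Mir218-2: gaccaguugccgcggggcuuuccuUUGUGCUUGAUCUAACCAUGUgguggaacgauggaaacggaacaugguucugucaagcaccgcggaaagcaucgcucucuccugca

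Both hairpins are 110 bases long, and 71 bases are identical when they are aligned end to end without gaps. The mature strands are the same in all 21 bases. The passenger strands, the other arms of the hairpins, are not the same, and the array carries a probe for each of them. They are shown because they alone could tell the loci apart here.
mmu-miR-218-1*: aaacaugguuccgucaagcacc
mmu-miR-218-2*: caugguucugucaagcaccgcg

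The 5 spots of miR-218 averaged 1.76 to 3.01 times the mean of the empty spots in control cultures. In forskolin cultures they averaged 10.3 to 57.7 times that mean. In control 1, stained with Cy3, they read 312.1, 241.4, 250.5, 240.0 and 260.5 scanner units, against a mean of 131.2 ± 14.3 (SD) over the 669 empty spots of that sample. In control 2, stained with Cy5, they read 71.0, 51.2, 50.2, 47.2 and 58.6, against 31.6 ± 1.9 in empty spots. In control 3, stained with Cy3, they read 650.8, 555.1, 599.2, 556.5 and 652.2, against 200.1 ± 14.3. The control spots were thus above the mean of the empty spots in every case, though 3 of the 669 empty spots of control 1 were brighter than its lowest miR-218 spot.

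In forskolin 1, stained with Cy5, the spots read 994.9, 693.4, 502.1, 581.1 and 708.5, against 32.6 ± 4.6 (SD) in empty spots. In forskolin 2, stained with Cy3, they read 2401, 1901, 1778, 1764 and 2041, against 192.1 ± 7.1. In forskolin 3, stained with Cy5, they read 2222, 1931, 2025, 1864 and 2028, against 34.9 ± 4.9. No empty spot of any forskolin sample was as bright as the dimmest miR-218 spot there. The scanner values of control 3 and forskolin 1 overlapped before any correction for background or dye.

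**Figure D1:**
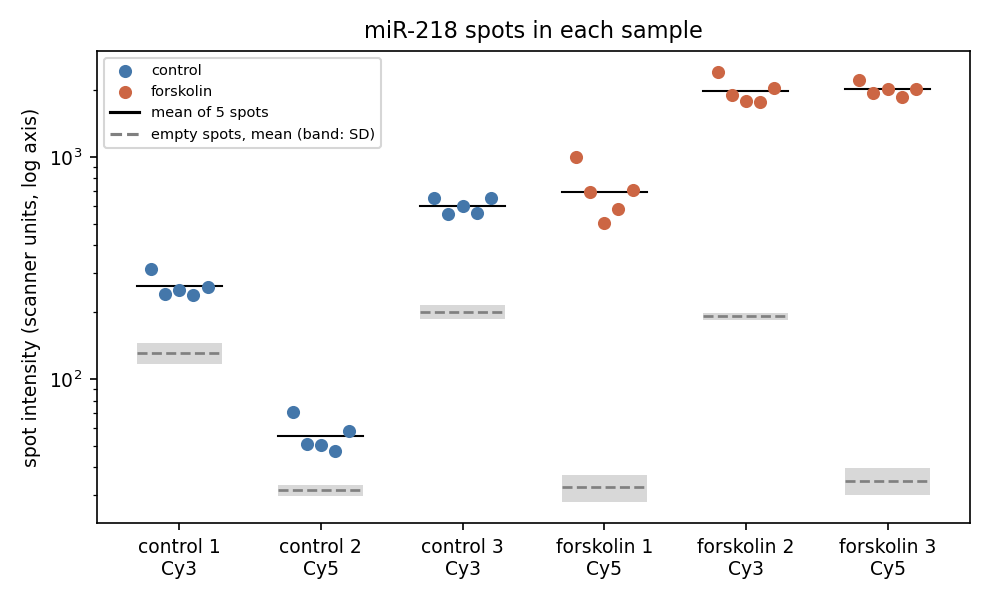
Scanner intensity (log axis) of the 5 spots of miR-218 in each of the 6 samples, in file order from left to right within a sample, with the mean of the 5 spots (black line) and the mean and SD of the 669 empty spots (dashed line and grey band). Spots lie at 1.76 to 3.01 times the empty mean in controls and at 10.3 to 57.7 times in forskolin samples, as means of 5 spots.

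The level above empty spots, the mean of the 5 spots minus the mean of the empty ones, was 129.7, 24.0 and 402.7 scanner units in control 1, 2 and 3. It was 663.4, 1785 and 1979 in forskolin 1, 2 and 3. On this scale every forskolin sample was above every control sample. Expressed in SDs of the empty spots, the control levels were 9.08, 13.0 and 28.2, and the forskolin levels were 145.7, 252.5 and 401.8. A probe was called detected at 3 SDs, so miR-218 was detected in 6 of 6 samples.

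The 5 spots of miR-218 spread more widely than those of the median tested probe in 5 of 6 samples. Its coefficient of variation over 5 spots was taken on scanner intensity, with the background left in. It was 11.4%, 17.2% and 7.94% in control 1, 2 and 3, where the median over the 167 tested probes was 5.69%, 6.65% and 4.87%. In forskolin 1 and 2 it was 26.9% and 13.3%, against medians of 8.76% and 4.36%. In forskolin 3 it was 6.71%, the same as the median. Relative to the level above empty spots, the SD of the 5 spots was 23.0%, 39.8% and 11.9% in control 1, 2 and 3. In forskolin 1, 2 and 3 it was 28.2%, 14.7% and 6.83%, and no median over probes was taken on this scale. The spot at row 5 and column 14 of the array was the brightest of the 5 in 5 of 6 samples, and in control 3 it read 650.8 where the brightest spot read 652.2.

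The ratio of forskolin to control was taken within each replicate number, since samples of the same number deviated together, as given with the processing. From the levels above empty spots it was 5.12 in pair 1, 74.3 in pair 2 and 4.91 in pair 3. Taken spot by spot at the same array position, the ratio was above 1 at 5 of 5 positions in each pair. It ran from 3.94 to 6.0 in pair 1, from 56.1 to 100.9 in pair 2 and from 4.41 to 5.34 in pair 3. Differences between spots of a probe were therefore small beside the difference between pair 2 and the others.

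The overall brightness of the samples differed most in pair 2. There the control was stained with Cy5 and the forskolin sample with Cy3, the reverse of pairs 1 and 3. How much of the pair ratios comes from the dye was not tested. The median level above empty spots over the 151 probes detected in all samples was 134.4 in control 2 and 895.9 in forskolin 2, against 830.2 and 585.9 in control 1 and forskolin 1, and 1322 and 504.4 in control 3 and forskolin 3. Divided by the median ratio of those 151 probes in the same pair, the miR-218 ratio was 6.64, 11.6 and 11.9 in pair 1, 2 and 3. The authors' deposited table, whose normalization between samples is not given in the sources used here, lists miR-218 at 92, 110 and 139 in controls and at 700, 1190 and 1987 in forskolin samples. Its ratios were 7.61, 10.8 and 14.3. Over the 151 probes, the median of the deposited value over the level above empty spots was 0.80, 4.14 and 0.415 in control 1, 2 and 3 and 1.06, 0.664 and 0.97 in forskolin 1, 2 and 3, so that table had been rescaled between samples, most of all in control 2. Divided by the 5S ribosomal RNA probes of the same sample, a scale chosen after the data were seen, the ratios were 6.68, 65.8 and 9.59.

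**Figure D2:**
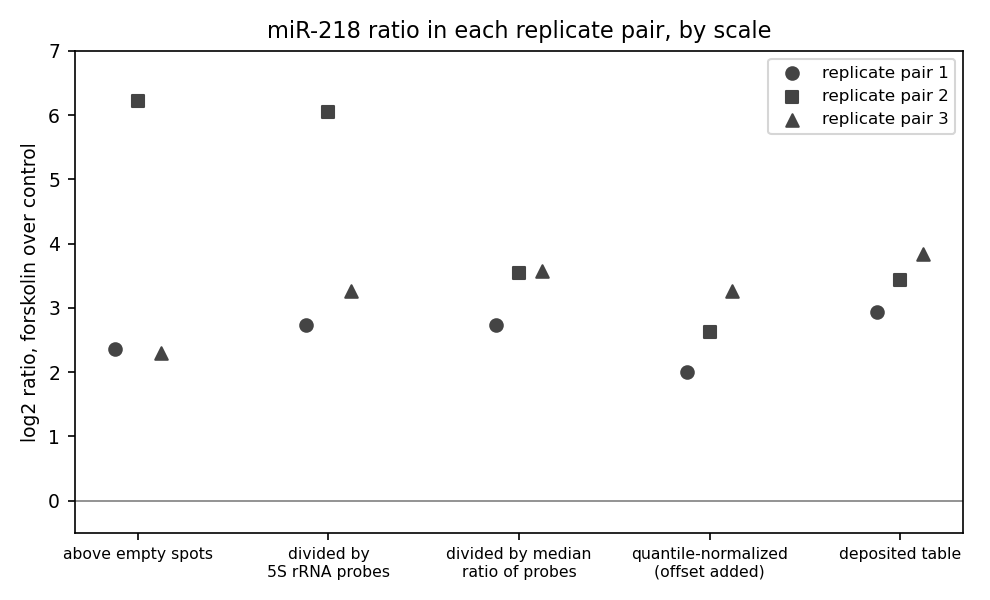
The log2 ratio of miR-218, forskolin over control, in each of the 3 replicate pairs (symbols) on 5 scales. Pair 2 stands at 6.21 from uncorrected levels above empty spots and at 3.54 once divided by the median ratio of the probes detected in all samples, beside 2.73 and 3.57 in pairs 1 and 3. The dyes of the control and the forskolin sample are exchanged in pair 2.

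After background correction and quantile normalization, miR-218 stood at a log2 intensity of 7.52, 7.81 and 7.77 in control 1, 2 and 3, and at 9.53, 10.43 and 11.04 in forskolin 1, 2 and 3. The groups did not overlap. Their means were 7.70 ± 0.16 and 10.33 ± 0.76 (SD, n = 3 each), so the forskolin samples spread more widely than the controls, with forskolin 1 lowest and forskolin 3 highest. The log2 ratios within pairs were 2.01, 2.62 and 3.26 on this scale. The fitted log2 fold change, with a term for the dye, was 2.63 with a standard error (SE) of 0.41, or 6.18-fold. An offset of 50 units was added to every spot before the log, and this lowers the fold change of a probe as dim as miR-218 was in controls.

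The place of miR-218 among the probes of its own array moved in the same way. Ordered by brightness among 599 probes, it was number 121, 112 and 113 in control 1, 2 and 3 and number 73, 59 and 48 in forskolin 1, 2 and 3. These places use no scaling between samples. They order the brightness of probes and not the amounts of different miRNAs, since probes differ in how they bind.

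In the fit over all 167 probes, 10 passed an adjusted p of 0.05 (limma with Benjamini-Hochberg adjustment), a share of 5.99%, and 4 of these were higher in forskolin cultures, a share of 2.4%, and 6 lower, a share of 3.59%. Groups that did not overlap, with forskolin higher, were found for 17 probes, a share of 10.2%. With the replicate number as a block in the fit, 30 probes passed, 18 of them higher (10.8%) and 12 lower (7.19%). That fit has 1 residual degree of freedom per probe and gave all 167 probes the same SE, 0.30, so its calls rest on a spread shared by all probes. No probe passed when control 2 or forskolin 2 was left out (20 and 22 at an unadjusted p under 0.05), and 3 passed without control 3. miR-218 was among the 10, the 17 and the 30, and nothing is read from that, since it was chosen on the same values. The probes next in order by fitted log2 fold change were miR-196a, encoded within the Hox clusters, at 1.96 (SE 0.29), its close relative miR-196b at 1.75 (SE 0.92) and miR-689 at 1.72 (SE 0.50). The groups of miR-196b overlapped, and its level was detected in 2 of 3 control samples.

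**Figure D3:**
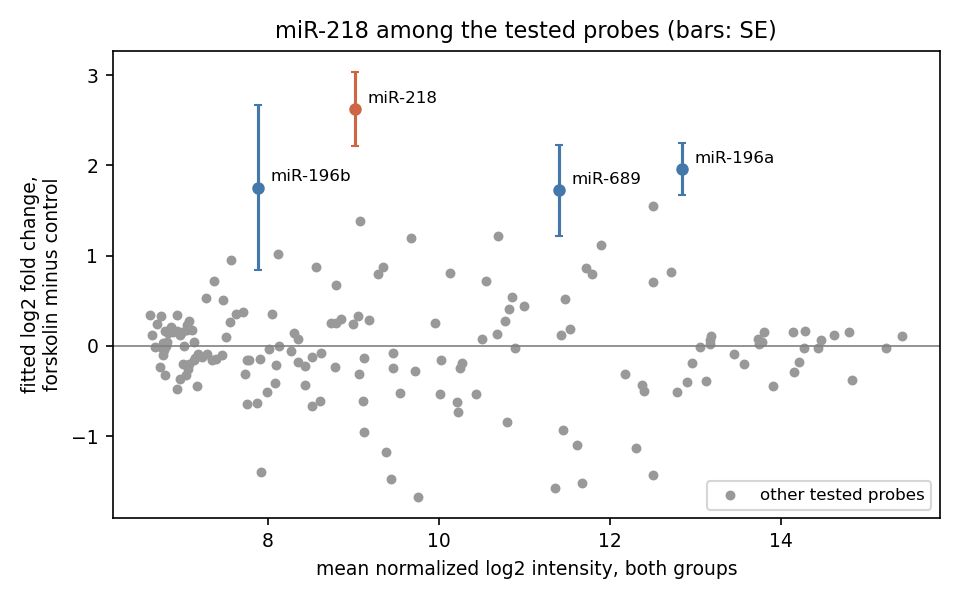
Fitted log2 fold change (forskolin minus control) against mean normalized log2 intensity for the 167 tested probes, with SE bars on miR-218 and the 3 probes that follow it. miR-218 stands at 2.63, above miR-196a at 1.96, and is dimmer than miR-196a, with many tested probes on either side of it in brightness.

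The passenger strands of both hairpins stayed near the background. The probe for miR-218-1* was 6.65, 2.24 and 29.7 scanner units above empty spots in control 1, 2 and 3, and 2.21, 32.6 and 6.93 in forskolin 1, 2 and 3. The probe for miR-218-2* was at 6.41, 3.50 and 40.04 in controls and at 2.16, 32.4 and 15.1 in forskolin samples. Neither showed the separation of the groups seen for the mature strand, and neither passed the filter for testing. miR-218-1* passed detection in forskolin 2 only, and miR-218-2* in forskolin 2 and 3. Forskolin 2 called 585 of 599 probes detected, against 162 to 225 in the other samples, and there the median of all 599 probes was 34.7 units above empty spots, whose SD was 7.1. In forskolin 3 the miR-218-2* level was 3.06 SDs above the empty spots, and 1 of its spots read 78.2 where the other 4 read 39.4 to 46.7. The array therefore gave no measurement that separates the Slit2 locus from the Slit3 locus.

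No other probe on the array was close to miR-218 in sequence. Its seed occurred in no other target sequence of the array. In the RefSeq table, 2 of 1679 mature mouse miRNAs had the seed, miR-218 and miR-7002-3p, which is shown because it shares the seed and little beyond it.
mmu-miR-7002-3p: uUGUGCUUccccuugccag

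The nearest targets on the array were 9 edits away from the 21 bases of miR-218, a distance shared by 15 probes, where the median of all other probes was 13. By name the first of these were miR-1186, miR-148b and miR-152. miR-148b and miR-152, relatives that share a seed and come from introns of the Copz1 and Copz2 genes, are printed, with no capitals, because they were detected in all 6 samples.
mmu-miR-148b: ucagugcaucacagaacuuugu
mmu-miR-152: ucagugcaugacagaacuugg

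The level of miR-152 above empty spots was 1740, 345.1 and 3979 in controls and 2084, 2357 and 1899 in forskolin samples, so its groups overlapped, and its fitted log2 fold change was 0.27. miR-148b had 0.37, and miR-1186 was detected in forskolin 2 only and was not tested. Of the 15 probes at this distance 3 were tested, the third being miR-24-2* at -0.16. None of the 3 passed the adjusted threshold, where 5.99% of all tested probes did. The groups overlapped for each of them, where 10.2% of all tested probes were higher without overlap. Nothing is read from so few probes.

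The promoters of the host genes were read for the cyclic AMP response element, the DNA site bound by CREB. Neither the full site TGACGTCA nor its shorter core TGACG, on either strand, occurred in the 300-base RefSeq promoter window of Slit2 (chr5:47982905-47983204) or of Slit3 (chr11:35121206-35121505). The full site contains the core, and 1.79% and 20.81% of 32851 mouse promoter windows held them. The Slit3 window spans the annotated start of its gene, whereas the Slit2 window begins 1614 bases inside the gene extent from which the distance above was counted. The absence of these letters describes these windows alone. Messenger RNA of Slit2 and Slit3 was not measured on this array.

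The 5 probes whose profile over the 6 samples was most like that of miR-218 were miR-196a, miR-30a*, miR-30c, miR-98 and miR-196b. Likeness was measured by the root mean square difference between profiles of normalized log2 intensity, each centred on its own mean. It was 0.41 for miR-196a, 0.65 for miR-30a*, 0.69 for miR-30c, 0.76 for miR-98, a member of the let-7 family, and 0.84 for miR-196b. Over 166 probes the median difference was 1.41 and the highest was 2.29. The measure favours probes with a high fold change, and it is given as a description of 6 samples.

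miR-196a was at a log2 intensity of 11.87, 12.10 and 11.54 in controls and at 13.46, 13.87 and 14.25 in forskolin 1, 2 and 3. Like miR-218, it was lowest in forskolin 1 and highest in forskolin 3 among the forskolin samples. The same held for miR-30a*, miR-98 and miR-196b. For miR-30c, at 13.14, 13.40 and 13.26, the forskolin samples lay closer together. miR-98, at 10.03 in forskolin 1, and miR-196b, at 7.33 there, were within the range of their controls in that sample, which miR-218 was not.

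**Figure D4:**
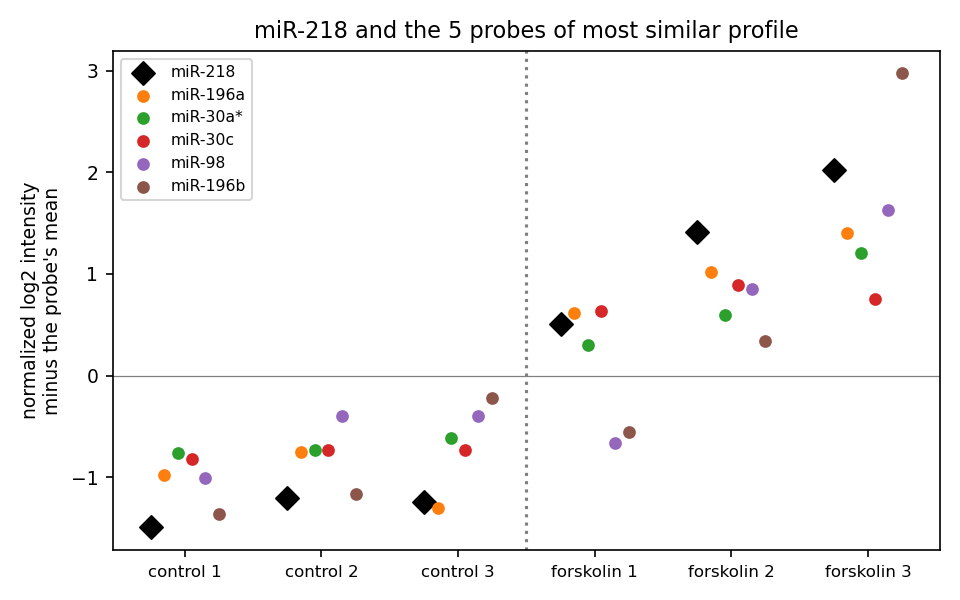
Normalized log2 intensity minus the probe's own mean over 6 samples, for miR-218 (diamonds) and the 5 probes of most similar profile (circles), side by side within each sample. miR-218, miR-196a, miR-30a* and miR-30c lie below 0 in the 3 controls and above 0 in the 3 forskolin samples, while miR-98 and miR-196b lie below 0 in forskolin 1.

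Of other miRNAs that sit in introns of protein-coding genes, 1 rose and none fell. The list held 75 probes, of which 34 were tested beside miR-218, and the 1 was miR-30c, where 2.4% of all tested probes rose and 3.59% fell. Of the 34, 16 had a positive log2 fold change, with a median of -0.03, where the median over the 166 other tested probes was -0.01. With the replicate block 6 of the 34 rose and none fell, where 10.8% and 7.19% of all tested probes did. miR-30c, which has a copy in an intron of Nfyc, differed by 1.55 on the log2 scale (SE 0.20; adjusted p = 0.0142, limma). Its level above empty spots was 3799, 1162 and 6256 in controls and 10631, 14562 and 11914 in forskolin samples, with no overlap. miR-30e*, from the same intron, followed with 0.95 (SE 0.27; adjusted p = 0.0853 in limma, or 0.0132 with the block). At the lower end were miR-93, from an intron of the replication gene Mcm7, at -0.73 (SE 0.34), and miR-27b*, a passenger strand, at -0.64 (SE 0.29), and neither passed.

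The miRNAs best known as targets of CREB, the transcription factor activated by cyclic AMP, differed by less than miR-218. miR-132 was 936.7, 238.4 and 1322 units above empty spots in controls and 1270, 2318 and 1430 in forskolin samples. Its log2 fold change was 0.81 (SE 0.24; adjusted p = 0.102 in limma, or 0.0428 with the replicate block). miR-212, cut from the same transcript, had 0.34 (SE 0.20; adjusted p = 0.411 in limma). It was detected in 2 of 3 controls, so it entered the test only through the forskolin group. The levels of miR-132 above empty spots overlapped between the groups. On normalized log2 intensity, forskolin was higher without overlap for both probes, as it was for 10.2% of all tested probes. Neither of these 2 probes passed in the fit without the block, where 5.99% of all tested probes did. With the block miR-132 passed and miR-212 did not, where 10.8% of all tested probes rose. The difference between these probes and miR-218 was not tested.

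Markers of neurons, in which miR-218 is abundant, were mostly not detected in these cells. Of 13 neural probes 2 were tested, miR-128 and miR-129-3p, at log2 fold changes of -0.08 (SE 0.27) and -0.01 (SE 0.22). miR-129-3p was detected in 2 of 3 controls and entered the test only through the forskolin group. The defining neural miRNAs miR-124, miR-9 and miR-9* were detected in forskolin 2 only, and the highest level above empty spots among them was 38.5 units, for miR-9 in that sample. The summed level of the 13 probes was 121.2 to 947.9 units in controls and 332.3 to 1002 in forskolin samples. The groups overlapped in it, but the sums are not scaled between samples of unlike brightness, so nothing is read from the overlap.

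Among the other marker lists, all 9 smooth muscle probes were detected in all 6 samples, the brightest being miR-21 and miR-26a, at log2 fold changes of 0.10 (SE 0.20) and 0.04 (SE 0.20). Their median log2 fold change was -0.40, positive for 4 and negative for 5 of the 9. None rose and 1 fell, miR-222, at -1.10 (SE 0.24; adjusted p = 0.0465, limma), where 3.59% of all tested probes fell. With the block miR-221, its cluster partner, at -0.94 (SE 0.25), fell as well, where 7.19% of all tested probes fell. miR-143 and miR-145 of the contractile phenotype had -0.51 (SE 0.28) and -0.40 (SE 0.22). These 4 were chosen after their values were seen, and all 4 were negative. Of the rest of the list, miR-100 had -0.53 (SE 0.24). The other way went miR-10a, at 0.71 (SE 0.29), and miR-145*, at 0.17 (SE 0.19), besides miR-21 and miR-26a. None of the 2 endothelial and 5 epithelial probes was tested. Of the kidney tubule, blood and striated muscle lists, 2 of 4, 1 of 6 and 1 of 7 were. None of these passed the threshold, where 5.99% of all tested probes did. The tested tubule probes, miR-194 and miR-192, had log2 fold changes of 0.33 (SE 0.20) and 0.12 (SE 0.20). Each was detected in 1 of 3 controls and entered the test only through the forskolin group. miR-486 of blood had -0.48 (SE 0.27), and miR-206 of striated muscle had -0.24 (SE 0.34). The summed tubule level was 11.4 to 270.7 units in controls and 42.5 to 207.5 in forskolin samples. The groups overlapped in these sums, which are likewise not scaled between samples, and nothing is read from that.

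How large the difference in miR-218 was depended on the scale. Since miR-218 was chosen as the highest on these same samples, its sign and place in other fits are a description and no support. Over 23 alternative fits its log2 fold change was positive in each, from 2.31 with both samples of replicate 3 left out to 3.48 with samples scaled to the 5S probes, or 4.97-fold to 11.2-fold. It was 3.22, or 9.34-fold, with the empty spots subtracted and no offset added, and 2.94, or 7.68-fold, from the deposited table with the same offset. miR-218 had the highest fold change in all of these fits but that without forskolin 2, where miR-689 had 2.81 and miR-218 had 2.47. Forskolin 2 was the only forskolin sample stained with Cy3, so that fit separates dye and treatment through the single Cy5 control.

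**Figure D5:**
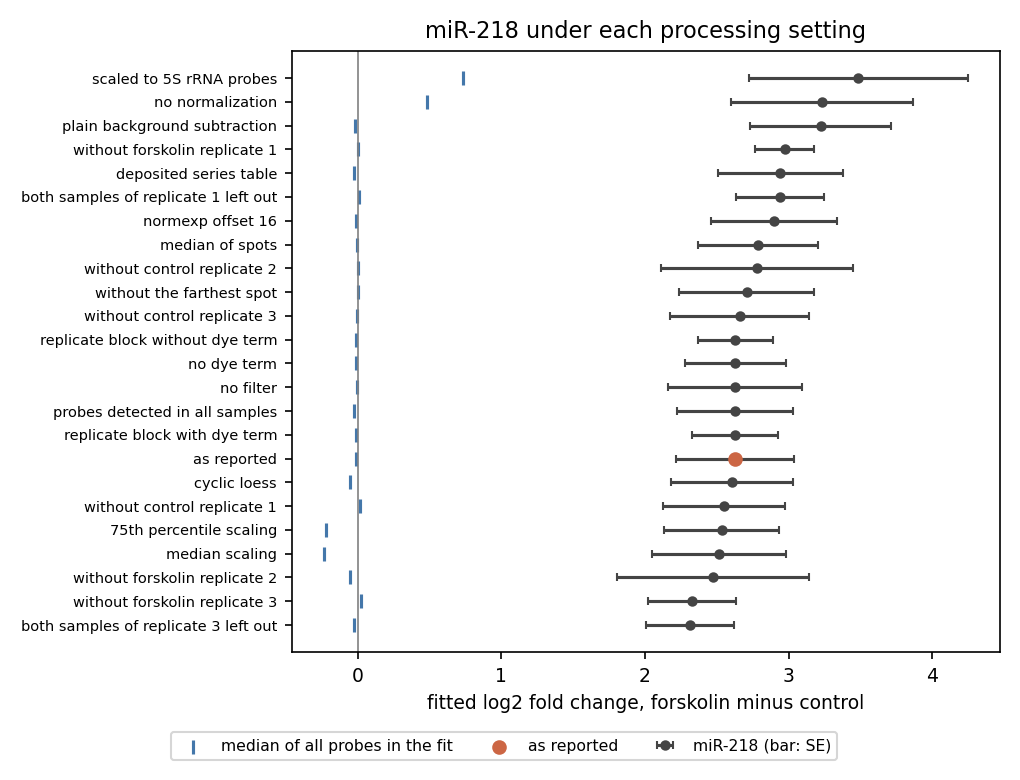
Fitted log2 fold change of miR-218 (points, SE bars) as reported and under 23 alternative settings, with the median of all probes in the same fit (blue marks). The values run from 2.31 to 3.48, and the 2 highest come from settings in which the median of all probes was shifted upward as well, by 0.73 and 0.48.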

How the data were processed

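Per the labels, LC Sciences, a service provider, tailed and tagged the small RNA of 6 cultures, stained each sample with Cy3 or Cy5 and ran the arrays. The authors deposited spot files with an intensity per spot in 1 dye, with background not subtracted, per the file headers, and a table of 1 intensity per probe and sample, whose processing is not given in the sources used here. Within a sample its log2 values correlated with those of spots minus empty spots at 0.995 or above over the 167 tested probes, and between samples it is on another scale. Groups and replicate numbers came from the sample titles.

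Background was removed by normexp (offset 50), the 5 spots of each of 599 probes were averaged, and quantile normalization followed on the log2 scale (limma 3.58.1, R 4.3.3). The 167 probes detected in all samples of at least 1 group were fitted with lmFit and eBayes, with terms for treatment and dye, Benjamini-Hochberg adjustment over the 167 and a threshold of 0.05. Detected means over 3 SDs above the mean of the empty spots. Ratios, sequence searches and figures were made in Python 3.11.15. The fit was tested on simulated data. The number of arrays limits the precision.

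Deviations from group means over the 167 probes correlated at 0.397, 0.473 and 0.359 between samples of the same number, and at 0.001 or below between the others. The numbers were therefore taken to pair the samples in the ratios and the block fit, a pairing that rests on these data. The design text of the series describes independent cultures, so the main fit has no block.

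Named probes were miR-218 and its passenger strands, the 3 next by fold change, the 5 of most similar profile, the first 3 by name of the 15 nearest in sequence, and from the lists the extremes (intronic), all tested (CREB) or the 2 brightest tested (markers). Every smooth muscle probe was named as well. The probe and the lists were chosen with earlier results of these data known. Fold changes of dim probes are understated by the offset. Alternatives covered normalization, background, spot summary, dye, pairing, filter, the deposited table and samples left out, and scales by the 5S probes and by the median ratio were added after seeing the data.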

Additional observations from a re-analysis of the deposited data

How the results depend on the processing

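The log2 fold change of miR-218 moved by more than the SD between replicates (0.55) in 3 of 23 alternative fits, to 3.23 with no normalization, to 3.22 with plain background subtraction and to 3.48 with scaling to the 5S probes. Between the 75th percentile and median scalings, no normalization and the 5S scaling, the median of all tested probes ran from -0.24 to 0.73. These 4 settings shift all probes of a sample by the same amount, so the distance of miR-218 from that median is the same in each by construction. It was 2.75, against 2.64 as reported. With single samples left out the fitted log2 fold change of miR-218 ran from 2.33 to 2.97, and its place by fold change was 1 or 2. Neither the filter nor the replicate block changes the fitted value in this design, so those of the 23 fits say nothing about its stability. The replicate block gave 2.63 with or without the dye term. Its SE with the dye term, 0.30, is the one shared by all 167 probes in that fit. The median log2 ratio over pairs was 2.36 from levels above empty spots, and moved by less than the SD between pairs (2.25, set largely by pair 2) in 9 alternatives, from 2.33 to 4.28.

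The count of called probes was 10, with 4 higher and 6 lower. It was 30 with the block and the dye term (18 higher, 12 lower), 24 with the block alone (12 and 12) and 18 with no dye term (8 and 10). It was 5 with no normalization (5 and 0), 4 with plain background subtraction (3 and 1), 5 with the median of spots (3 and 2), 4 without the farthest spot (2 and 2), 4 with the 5S scaling (4 and 0) and 1 with no filter. With 75th percentile scaling it was 12 (7 and 5). With single samples left out it ran from 0 to 12, with 0 without control 2 or forskolin 2, where 20 and 22 probes had an unadjusted p under 0.05, and 3 without control 3. Dropping replicate 1 in both groups gave 0 (17 unadjusted), and dropping replicate 3 in both gave 24. Leaving out a sample also removes degrees of freedom, and otherwise the cause was not tested. The fit without both samples of replicate 2 was not run, since the remaining samples have 1 dye per group. Low control levels, down to 24.0 units above empty spots in control 2, limit how precisely the ratios of miR-218 can be known.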
